A study of Homo sapiens with 8 samples.

Results

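Cytosolic ribosomal proteins were followed through 54 probe sets for 52 genes, out of 7840 probe sets with exactly 1 gene symbol and the 7713 genes they name. A probe set belonged to the group if its only symbol named a protein of the cytosolic ribosome (RPL or RPS and a digit, RPSA or FAU), without pseudogenes and the RPS6K kinases. The group held 29 genes of the large and 23 of the small subunit, counting FAU with the small subunit. A further 21 probe sets carried such a name among several symbols and were left out by the same rule, and 18 ribosomal protein genes occurred only there. RPL31 and RPS10 had 2 probe sets each, and every other gene had 1.

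Ribosomal proteins build, with ribosomal RNA, the large and small subunits of the particle that translates messenger RNA. Their genes are scattered over the genome, and their messages are abundant in dividing cells. Many of these messages start with a C and a run of pyrimidines, the terminal oligopyrimidine (TOP) start, through which the cell tunes their translation to growth signals. Some subunit genes have paralogues, among them RPL26L1 beside RPL26, RPL36AL beside RPL36A, RPS27L beside RPS27 and RPL3L beside RPL3.

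RNA of human breast cancer cells was measured on 8 Affymetrix HG-Focus arrays, in 4 groups of 2. The labels name the lines ZR75-1, with estrogen receptor, and SKBR3, without it. In each line 2 arrays held cells given a plasmid carrying HSD17B14, a steroid dehydrogenase gene, and 2 held cells given that plasmid without the insert. All cells were kept in phenol-red free Optimem with serum, took up plasmid by FuGene-6 a day after seeding, and gave their RNA 48 h later. Whether the duplicate arrays came from separate cultures is not said, and the p-values cover no more than the spread among these arrays.

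The HSD17B14 signal was 107.5 and 135.3 on the ZR75-1 HSD17B14 arrays, against 17.8 and 2.1 on the ZR75-1 vector arrays. It was 650.7 and 743.6 on the SKBR3 HSD17B14 arrays, against 2.0 and 4.2 on the SKBR3 vector arrays. The arrays labelled SKBR3 went against that name in ERBB2, amplified in SKBR3 cells, and in the mesenchymal gene VIM. ERBB2 read 25.9 to 46.8 there and 95.9 to 226.0 on the ZR75-1 arrays, while VIM read 3646.2 to 5325.8 there. GRB7, also picked as an SKBR3 marker, read 4.1 to 14.9 against 8.9 to 67.7. The estrogen receptor gene ESR1 read 14.9 to 24.6 against 194.5 to 341.6, the order the labels give. Luminal KRT18 read 2786.8 to 4602.3, KRT19 652.4 to 793.6 and KRT8 360.3 to 499.6. These, EPCAM (119.4 to 182.0) and CDH1 (26.8 to 58.1) were all under the ZR75-1 arrays. The arrays labelled SKBR3 are called SKBR3-labelled below. Markers of leucocytes, fibroblasts, endothelium and basal cells other than VIM reached at most 50.4 on any array. Each array had a trimmed mean of 100.1, so a member's value is relative to the other probe sets of its array.

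The promoter table from RefSeq (GRCh38.p14) held 46 of the 52 genes. A TOP start, defined as C at an annotated start followed by at least 4 bases of C or T, was found at 32 of these genes (69.6%), against 5.14% of the 27305 genes of the table. The letters CCGGAA, on either strand of the window from 250 bases before to 50 bases after the start, occurred at 56.5% of the members and at 20.1% of all genes. GGGCGG occurred at 56.5% and 48.3%, and TATAAA at 4.35% and 14%. The median GC content of the windows was 59.0% for the members, close to 58.3% for the table. A match only describes these letters. The windows below, 10 bases before and 20 from the start, belong to members whose signals the results turn on, and capitals mark the TOP run. The starts of RPL38, RPL14 and RPL18 have the run:
RPL38: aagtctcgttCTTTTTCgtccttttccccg
RPL14: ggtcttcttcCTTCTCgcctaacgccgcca
RPL18: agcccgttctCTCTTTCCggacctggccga
The annotated starts of RPL36AL, RPL10A and RPL26L1 do not:
RPL36AL: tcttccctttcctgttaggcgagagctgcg
RPL10A: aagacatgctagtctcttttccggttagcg
RPL26L1: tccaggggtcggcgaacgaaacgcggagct
The windows lie on chr17:74203668-74203697 (plus strand) for RPL38, chr3:40457329-40457358 (plus) for RPL14 and chr19:48619159-48619188 (minus) for RPL18. Those without the run lie on chr14:49620607-49620636 (minus) for RPL36AL, chr6:35468391-35468420 (plus) for RPL10A and chr5:172958719-172958748 (plus) for RPL26L1. RPL26L1 has 2 entries in the table, neither with the run, and the first is shown.

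Nearly all members were bright. Of the 54, 49 lay among the 625 brightest of the 6251 tested probe sets by mean log2 signal, and 46 had a mean signal above 1000. Members took between 10.9% and 14.9% of the summed signal of an array. Signals of different probe sets depend on their probes, so their order is no order of mRNA levels. RPL41, the smallest ribosomal protein, read 5506.4 to 8870.7, and RPL37A, a zinc-binding large subunit protein, read 4897.3 to 8888.5. At the other end stood RPL3L, a paralogue known from striated muscle, at 2.0 to 20.3, a range that spans the arrays' 40th percentiles of 12.1 to 17.6. The member on the Y chromosome enters the counts and medians only, with no value given.

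The members' median signal was 3098.55 and 3254.55 on the ZR75-1 HSD17B14 arrays and 2137.15 and 2999.15 on the ZR75-1 vector arrays. On the SKBR3-labelled arrays it was 2860.8 and 3138.5 with HSD17B14 and 3778.1 and 3659.75 with vector. ZR75-1 vector array 1 was the lowest, with 47 of 54 members under their own mean over the 8 arrays. Both SKBR3-labelled vector arrays were high: 50 and 45 of 54 members lay above their own mean there. Arrays of the same group differed too, since 51 of 54 members were lower on ZR75-1 vector array 1 than on array 2, by a median of 0.38 on the log2 scale.

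**Figure D1:**
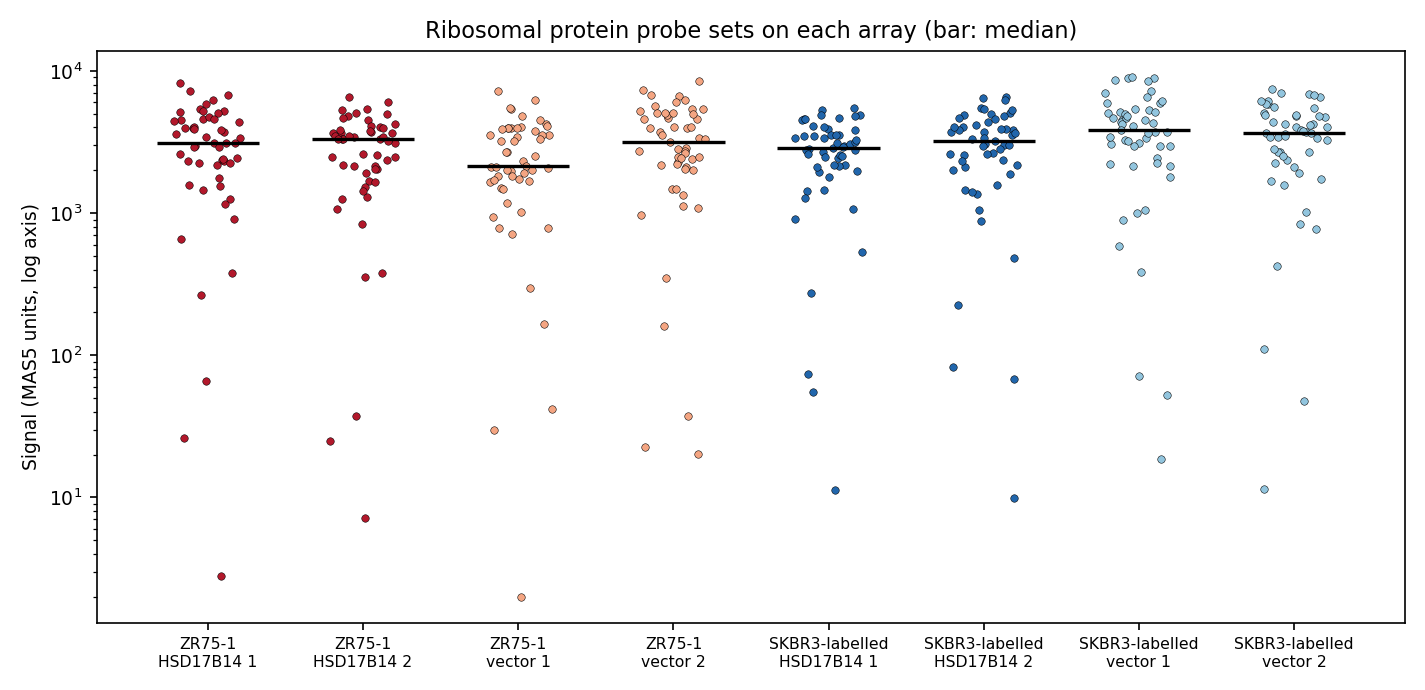
Signal (MAS5 units, log axis) of each ribosomal protein probe set on each of the 8 arrays, without the Y-linked member. Points are probe sets and bars are medians over the probe sets shown. The median is lowest on ZR75-1 vector array 1 and highest on the SKBR3-labelled vector arrays.

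Most members followed a common pattern over the arrays. As a description over 8 arrays of 4 groups, the log2 signal of 36 members correlated above 0.5 with the median of the other members. RPS9, near the mRNA entry of the small subunit, and RPS29, a zinc-binding protein of the small subunit head, were closest to that median (Pearson's r = 0.97 each). RPL8, RPL30, RPLP1, RPS4X and RPS27L had values between -0.16 and -0.11. RPLP1 belongs to the acidic stalk that recruits translation factors, and RPS4X is encoded on the X chromosome. These points share the scaling of their arrays, which moves all members of an array together.

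Some members are of interest for their own roles. FAU encodes a ubiquitin-like protein fused to a small subunit protein, and read 1751.0 and 1651.8 in ZR75-1 with HSD17B14, 1483.0 and 1996.2 with vector, 2111.2 and 1892.6 in SKBR3-labelled cells with HSD17B14 and 2199.2 and 2257.2 with vector. Its arrays overlapped between the plasmids in ZR75-1 only. RPLP1 read 3883.0 and 3399.7 in ZR75-1 with HSD17B14, 3915.9 and 3996.4 with vector, 2786.8 and 3076.4 in SKBR3-labelled cells with HSD17B14 and 3729.0 and 3638.1 with vector. The SKBR3-labelled HSD17B14 arrays were its lowest.

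RPS4X read 5079.1 and 3802.9 in ZR75-1 with HSD17B14, 4484.8 and 5093.6 with vector, 2877.6 and 3303.2 in SKBR3-labelled cells with HSD17B14 and 4340.5 and 3741.4 with vector. The SKBR3-labelled HSD17B14 arrays lay under all others here too. RPS27, a zinc-binding protein of the small subunit, read 4619.0 and 4974.8 in ZR75-1 with HSD17B14, 3784.3 and 4914.8 with vector, 3381.1 and 3835.2 in SKBR3-labelled cells with HSD17B14 and 4539.6 and 4244.9 with vector. Its paralogue RPS27L read 908.0 and 1069.9 in ZR75-1 with HSD17B14, 939.5 and 1342.3 with vector, 906.4 and 876.8 in SKBR3-labelled cells with HSD17B14 and 887.4 and 831.5 with vector, with its highest value on ZR75-1 vector array 2. None of these 5 members passed the test in any of the 6 contrasts.

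In ZR75-1 cells, RPL38 rose with the HSD17B14 plasmid and no other member passed the test. RPL38 is a small protein of the large subunit that in mouse is needed for translation of a set of Hox messages. Its signal was 263.8 and 381.6 on the HSD17B14 arrays, against 165.0 and 160.3 on the vector arrays. Both HSD17B14 arrays lay above both vector arrays. The difference was 0.96 ± 0.19 on the log2 scale (limma's standard error, n = 2 per group), or 1.95-fold, with a Benjamini-Hochberg adjusted p of 0.0305 over all 6251 probe sets.

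RPL38 made 1 member called higher of 54, where 0.736% of all tested probe sets were called higher and 0.784% lower. The call is near the threshold: it passed in 9 of 18 alternative settings, with an adjusted p between 0.0112 and 0.344 and a difference between 0.70 and 1.29. It was lost when ZR75-1 HSD17B14 array 2, either ZR75-1 vector array or either SKBR3-labelled HSD17B14 array was left out. The ratio of actin signals at the 3' and 5' ends of the message is a sign of RNA length. It was 2.8 and 2.7 on the ZR75-1 HSD17B14 arrays and 2.0 and 2.0 on the vector arrays. Ratio and plasmid thus go together in ZR75-1 and cannot be told apart. With this ratio as a covariate the call was also lost, and 0.016% of all probe sets were called, against 1.52% without it. Among arrays of low spike-in signal (1 HSD17B14 and 2 vector arrays) the RPL38 difference was 0.70.

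RPL36AL, the paralogue of RPL36A, had 1245.8 and 1298.0 on the ZR75-1 HSD17B14 arrays and 791.0 and 968.8 on the vector arrays. These groups did not overlap, and the difference of 0.54 ± 0.14 had an adjusted p of 0.0814. RPS3, which lines the entry of the mRNA channel, differed by 0.42 (adjusted p 0.243). RPL24, at the interface of the subunits, differed by 0.39 (adjusted p 0.265). On the other side RPL36 read 658.6 and 833.6 with HSD17B14 and 708.6 and 1127.5 with vector, a difference of -0.27 with overlapping groups (adjusted p 0.517). RPS18 differed by -0.26, RPS27L by -0.19 and RPL32 by -0.19, all of them short of the threshold.

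Across the group in ZR75-1, 32 members lay above 0 and 22 below, where 46.8% of all tested probe sets lay above, and the median was 0.09. The HSD17B14 arrays were all above the vector arrays for 10 members and all below for 2, against 20.7% and 26.3% of all probe sets. The median of all tested probe sets was -0.04, and that of the 576 non-members among the brightest 625 was 0.13. At an unadjusted p under 0.05, 5 members were higher and 1 lower, against 8.35% and 9.61% of all probe sets. The median was 0.10 for the large and 0.04 for the small subunit. The median over the members was -0.11 without ZR75-1 vector array 1 and 0.28 without vector array 2. With the actin ratio as a covariate it was -0.03, with 26 above 0 and 28 below. Median centring gave 0.29, with 50 above and 4 below, and moved the median of all probe sets to 0.16.

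In SKBR3-labelled cells the members were lower with the HSD17B14 plasmid, by small amounts that did not pass the test singly. Of 54 members, 50 had a difference below 0, against 50.9% of all tested probe sets, and the median was -0.33. Every HSD17B14 array lay under every vector array for 43 members (79.6%), against 20.6% of all probe sets. By limma, 0 members were called in either direction, where 0.944% of all probe sets were called higher and 0.048% lower. At an unadjusted p under 0.05, 17 members were lower and 0 higher, against 3.82% lower and 4.96% higher among all probe sets.

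RPL38 was again the member with the smallest p, here in the other direction. It read 272.3 and 227.0 on the SKBR3-labelled HSD17B14 arrays and 385.8 and 427.1 on the vector arrays. The arrays did not overlap, and the difference was -0.71 ± 0.19 (adjusted p 0.183). RPL7, an RNA-binding protein of the large subunit, had 3354.9 and 3697.2 with HSD17B14 and 5277.8 and 4810.2 with vector. Its difference of -0.52 ± 0.16 had an adjusted p of 0.273.

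RPL32, of the large subunit, read 2844.0 and 3028.7 with HSD17B14 and 5157.0 and 4012.5 with vector in SKBR3-labelled cells. Both vector arrays were higher, with a difference of -0.63 ± 0.19 and an adjusted p of 0.282. RPS10, on the head of the small subunit, differed by -0.64 ± 0.20 on the more strongly changed of its probe sets (adjusted p 0.315) and by -0.41 on the other. The 4 members above 0 were 1 of the RPL31 probe sets (0.29), RPS25 (0.09), RPS27L (0.05) and RPL36 (0.03). RPS27L, a target of p53, overlapped between its groups.

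**Figure D2:**
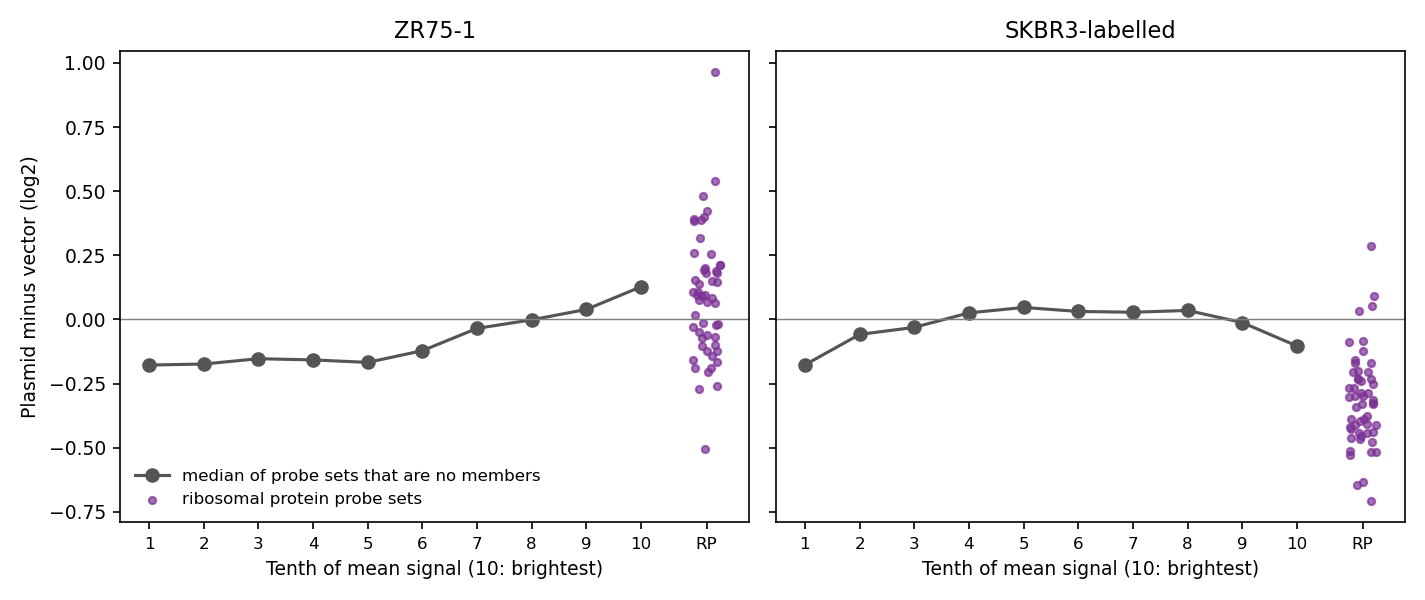
Plasmid minus vector on the log2 scale in ZR75-1 (left) and SKBR3-labelled cells (right). Grey points joined by lines are medians of non-member probe sets in 10 equal classes of mean signal, and purple points are the ribosomal protein probe sets without the Y-linked one. In SKBR3-labelled cells the members (median -0.33) lie mostly under the median of the brightest non-members (-0.10).

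Both subunits had like medians in SKBR3-labelled cells, -0.33 for the 30 large and -0.35 for the 24 small subunit probe sets. All 15 probe sets ending in _at lay below 0, as did 27 of 31 ending in _s_at and 8 of 8 ending in _x_at; probe sets of the _s_at and _x_at kinds may also bind related transcripts such as processed pseudogenes. Genes with and without a TOP run at an annotated start had medians of -0.31 (31 genes) and -0.34 (14 genes). A run that begins a few bases further on, as in the RPL10A window, counts as none. These sets therefore do not divide TOP messages from all others. The 576 bright non-members had a median of -0.10. In RNA from a whole culture, fewer cells with a message and less of it per cell cannot be told apart. With quantile normalization the members' median was -0.07 and 15 members (27.8%) had every HSD17B14 array under every vector array, against 20.9% of all probe sets.

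The actin ratio was 2.3 and 3.1 on the SKBR3-labelled HSD17B14 arrays and 3.6 and 3.0 on the vector arrays. With this ratio as a covariate the members' median was -0.24. Each level of spike-in signal held 1 HSD17B14 and 1 vector array in these cells. Between the arrays of high spike-in signal the members' median was -0.21, with 49 below 0. Between those of low spike-in signal it was -0.43, also with 49 below 0. With 1 array a side, a shift of a whole array moves all members together.

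Averaged over both lines, the members' median was -0.12, with 45 below 0 and 9 above, where 52.6% of all probe sets lay below. This direction depended on the scaling: median centring gave 0.02, with 31 above and 23 below, and quantile normalization -0.01, with 22 above and 32 below. Without ZR75-1 vector array 2 the median was -0.02. Limma called 0 members, where 1.5% of all probe sets were called, and 6 were lower and 1 higher at an unadjusted p under 0.05, against 7.33% and 6.83% of all. RPL32 had the smallest p (-0.41 ± 0.14, adjusted p 0.194), and RPS10 (-0.40), RPS18 (-0.37) and RPS24 (-0.36) followed. On the higher side stood RPL36AL at 0.23 (adjusted p 0.335) and RPS25, a protein of the small subunit head used by some viral RNAs, at 0.29. The difference of RPS25 had an adjusted p of 0.435.

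The plasmid's effect was set against itself in the 2 lines, ZR75-1 minus SKBR3-labelled. For RPL38 the effects differed by 1.67 ± 0.27 (95% interval 1.09 to 2.26, adjusted p 0.0204), and this was the only member called, where 0.624% of all probe sets were called and 0.064% were called on this side. The call passed in 8 of 17 alternative settings, with a difference of 1.41 to 2.22 and an adjusted p of 0.00492 to 0.706. It was lost without ZR75-1 HSD17B14 array 2, either ZR75-1 vector array, either SKBR3-labelled HSD17B14 array or SKBR3-labelled vector array 2, and with the actin ratio as a covariate. With that covariate 0 of all 6251 probe sets were called for this difference.

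Over the members the median difference of effects was 0.42, with 50 of 54 above 0, against -0.05 and 47.3% over all probe sets. The 576 bright non-members had a median of 0.20. At an unadjusted p under 0.05, 12 members were higher and 0 lower, against 5.78% and 7.26% of all probe sets. RPL7 (0.72 ± 0.22, adjusted p 0.217), RPL14 (0.67, adjusted p 0.301) and RPL36AL (0.62 ± 0.20, adjusted p 0.240) followed RPL38. Below 0 stood RPL36 at -0.30, RPS27L at -0.24 and RPL3L at -0.04. By sign, 30 members were above 0 in ZR75-1 and below 0 in SKBR3-labelled cells, 20 were below 0 in both, 2 above in both and 2 the other way.

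This median moved with the setting, to 0.14 with quantile normalization, 0.19 with the actin ratio as a covariate, 0.25 without ZR75-1 vector array 1 and 0.61 without ZR75-1 vector array 2. The difference of effects uses every array of the plasmid contrasts and is no separate evidence beside them.

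**Figure D3:**
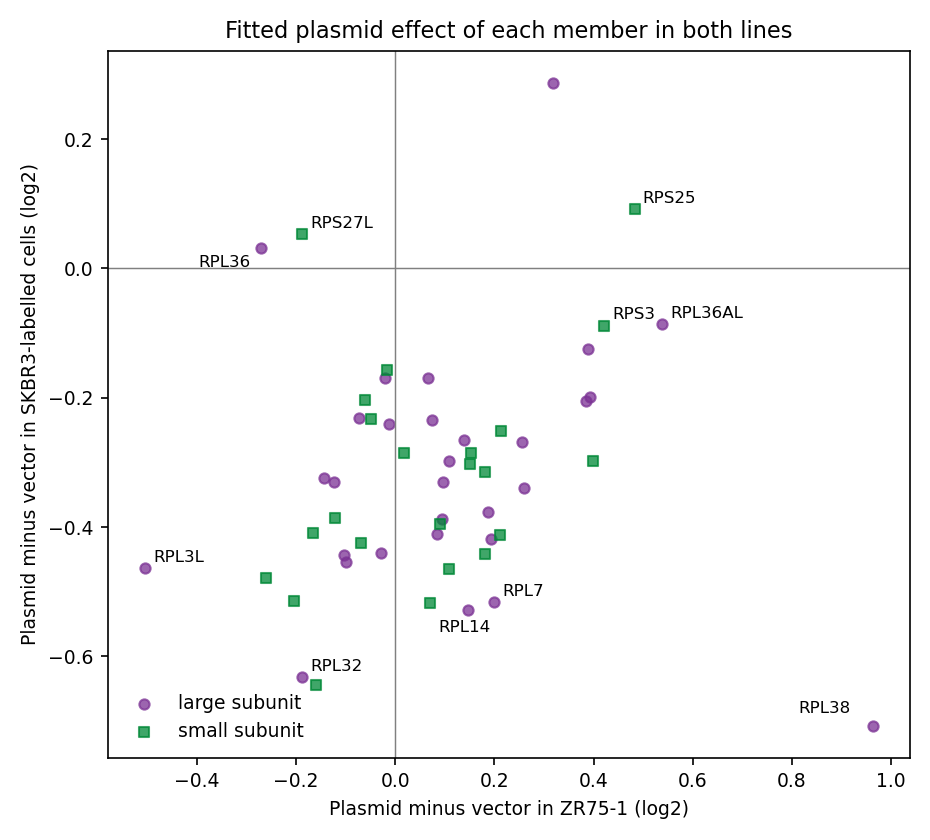
Fitted plasmid effect (HSD17B14 minus vector, log2) of each ribosomal protein probe set in ZR75-1 (horizontal) and in SKBR3-labelled cells (vertical), without the Y-linked member. Circles are large and squares small subunit proteins. RPL38 stands apart at 0.96 and -0.71.

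Between the vector controls, ZR75-1 minus SKBR3-labelled, 25 member probe sets of 24 genes were called lower in ZR75-1 and 0 were called higher. Over all tested probe sets 20.7% were called lower and 19.6% higher, so differences between these lines were common. Of the members 46 lay below 0, against 50.8% of all probe sets. Their median was -0.41, against -0.04 for all probe sets and -0.09 for the 576 bright non-members. The large subunit had 15 probe sets called lower of 30 (median -0.58) and the small subunit 10 of 24 (median -0.36). For 31 members every ZR75-1 vector array lay under every SKBR3-labelled one, and for 4 above, against 33.4% and 32.8% of all probe sets. Without ZR75-1 vector array 1 the members' median was -0.24, with 37 below 0. Without SKBR3-labelled vector array 1 it was -0.36, with 39 below 0. These arrays are also the controls of the plasmid contrasts above, so the results are not independent of each other.

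Among the paralogues, RPL36AL read 791.0 and 968.8 on the ZR75-1 vector arrays and 2139.8 and 2092.6 on the SKBR3-labelled vector arrays. The lines were far apart, by -1.27 ± 0.14 with an adjusted p of 2.78e-05. RPL26L1 read 294.8 and 349.7 in ZR75-1 and 589.8 and 771.5 in SKBR3-labelled controls, which differed by -1.07 ± 0.16 (adjusted p 3.05e-04). RPL38 had a difference of -1.32 ± 0.19 (adjusted p 1.82e-04), with 165.0 and 160.3 in ZR75-1 and 385.8 and 427.1 in SKBR3-labelled controls. All 3 calls held in all 17 alternative settings.

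RPL10A, of the stalk beside the exit site for spent tRNA, read 1501.8 and 2037.3 in ZR75-1 and 3637.4 and 3286.4 in SKBR3-labelled controls. Its difference of -0.98 ± 0.17 had an adjusted p of 6.17e-04. RPL31, a protein near the exit of the peptide tunnel, had 29.8 and 22.7 in ZR75-1 and 70.9 and 110.0 in SKBR3-labelled controls on its _at probe set, a difference of -1.76 ± 0.34 (adjusted p 0.00144). Its _s_at probe set differed by -0.34 and was not called. The probe sets of RPL31 are thus 1.43 apart on the log2 scale, and both are dim beside most members.

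The other large subunit members called lower in ZR75-1 controls were RPL18 (-0.87), RPL24 (-0.79), RPL37 (-0.77), RPL27 (-0.75), RPL34 (-0.74), RPL6 (-0.73), RPL14 (-0.72), RPL35 (-0.70), RPL12 (-0.65) and RPL7 (-0.42). Of the small subunit, both RPS10 probe sets (-0.99 and -0.73), RPS29 (-0.78), RPS3 (-0.64), RPS18 (-0.64), RPS6 (-0.61), RPS23 (-0.57), RPS12 (-0.53), RPS7 (-0.48) and RPS9 (-0.39) were lower. RPS6 is the substrate of the S6 kinases, and RPS23 sits at the decoding centre. Adjusted p-values of these members ran up to 0.0491. The calls of RPL7 and RPS9 passed in 3 of 17 alternative settings, that of RPS7 in 4, RPS12 in 8 and RPS18 in 9, while the other calls between the controls passed in 10 or more. The members highest in ZR75-1 controls were RPL30 (0.40, adjusted p 0.114), RPS27L (0.39, adjusted p 0.0990), RPS4X (0.25) and RPL8 (0.17).

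The ratio of actin signals was 2.0 and 2.0 on the ZR75-1 vector arrays, below the 3.6 and 3.0 of the SKBR3-labelled vector arrays. Among the vector arrays ratio and line thus go together and cannot be told apart. With this ratio as a covariate 3 members were called, where calls over all probe sets also dropped, to 9.13% against 40.2% without it, and the members' median was -0.22. With quantile normalization 15 members were called lower and 5 called higher, against 20.5% and 19.8% of all probe sets.

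**Figure D4:**
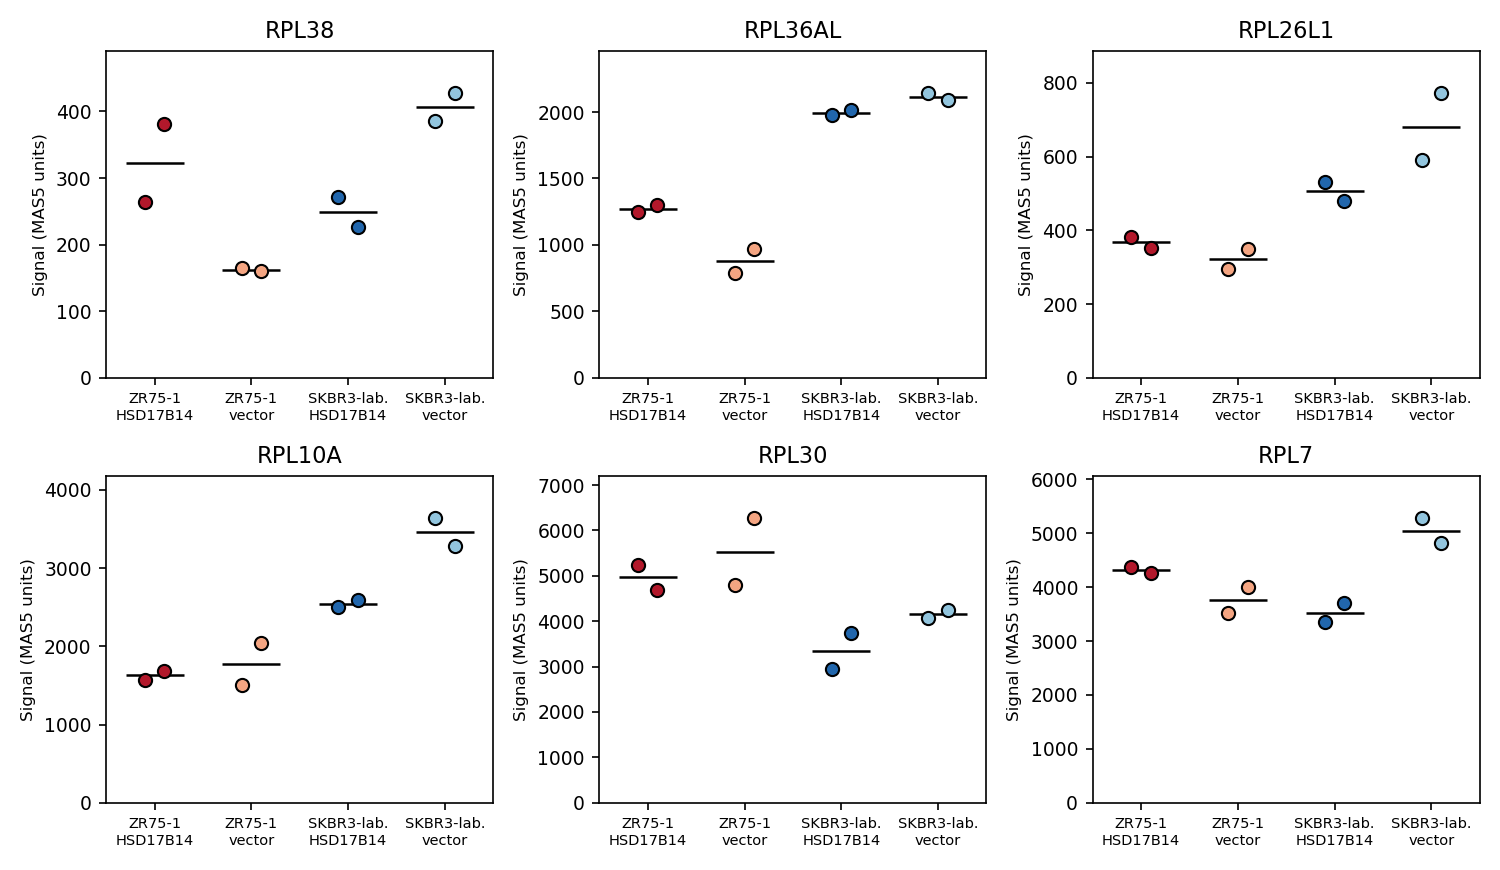
Signal (MAS5 units, axes from 0) of 6 members on each array of the 4 groups. Points are arrays and bars are means of 2 arrays. RPL38 reads higher with HSD17B14 in ZR75-1 and lower in SKBR3-labelled cells, while RPL36AL, RPL26L1 and RPL10A read lower in ZR75-1 with either plasmid.

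With HSD17B14 in both lines, 3 members were called lower in ZR75-1 and 1 higher, where 18.1% and 15.1% of all probe sets were called, and the median was -0.05. Arrays of the lines did not overlap for 21 members lower in ZR75-1 and 18 higher, against 37.3% and 33.5% of all probe sets. RPL31 (its _at probe set) read 26.2 and 25.1 in ZR75-1 and 74.3 and 82.9 in SKBR3-labelled HSD17B14 cells, a difference of -1.61 ± 0.34 (adjusted p 0.00315). RPL36AL differed by -0.65 ± 0.14 (adjusted p 0.00414), with 1245.8 and 1298.0 in ZR75-1 and 1976.6 and 2011.9 in SKBR3-labelled cells. Neither gene's groups overlapped. RPL10A read 1573.1 and 1686.4 in ZR75-1 and 2500.5 and 2586.3 in SKBR3-labelled HSD17B14 cells, and differed by -0.64 ± 0.17 (adjusted p 0.0109).

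RPL30, which in yeast controls splicing of its own message, was the member called higher. It had 5241.1 and 4694.5 in ZR75-1 and 2942.0 and 3742.9 in SKBR3-labelled HSD17B14 cells. The difference was 0.58 ± 0.19 (adjusted p 0.0323), and the call passed in 8 of 17 alternative settings. It was lost without either ZR75-1 HSD17B14 array, SKBR3-labelled HSD17B14 array 1 or either SKBR3-labelled vector array. RPL26L1 differed by -0.46 and missed the threshold (adjusted p 0.0508). RPL38, with -1.32 between the controls, differed here by 0.35 ± 0.19 with overlapping groups (adjusted p 0.184).

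The 3 members called lower here were also called lower between the vector controls. Counts varied with the setting: quantile normalization called 10 lower and 7 higher, against 16.4% and 16.2% of all probe sets, and leaving out either ZR75-1 vector array called 7 lower and 4 higher, against 19.5% and 15.2%. Without SKBR3-labelled HSD17B14 array 1 the members' median was -0.09.

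**Figure D5:**
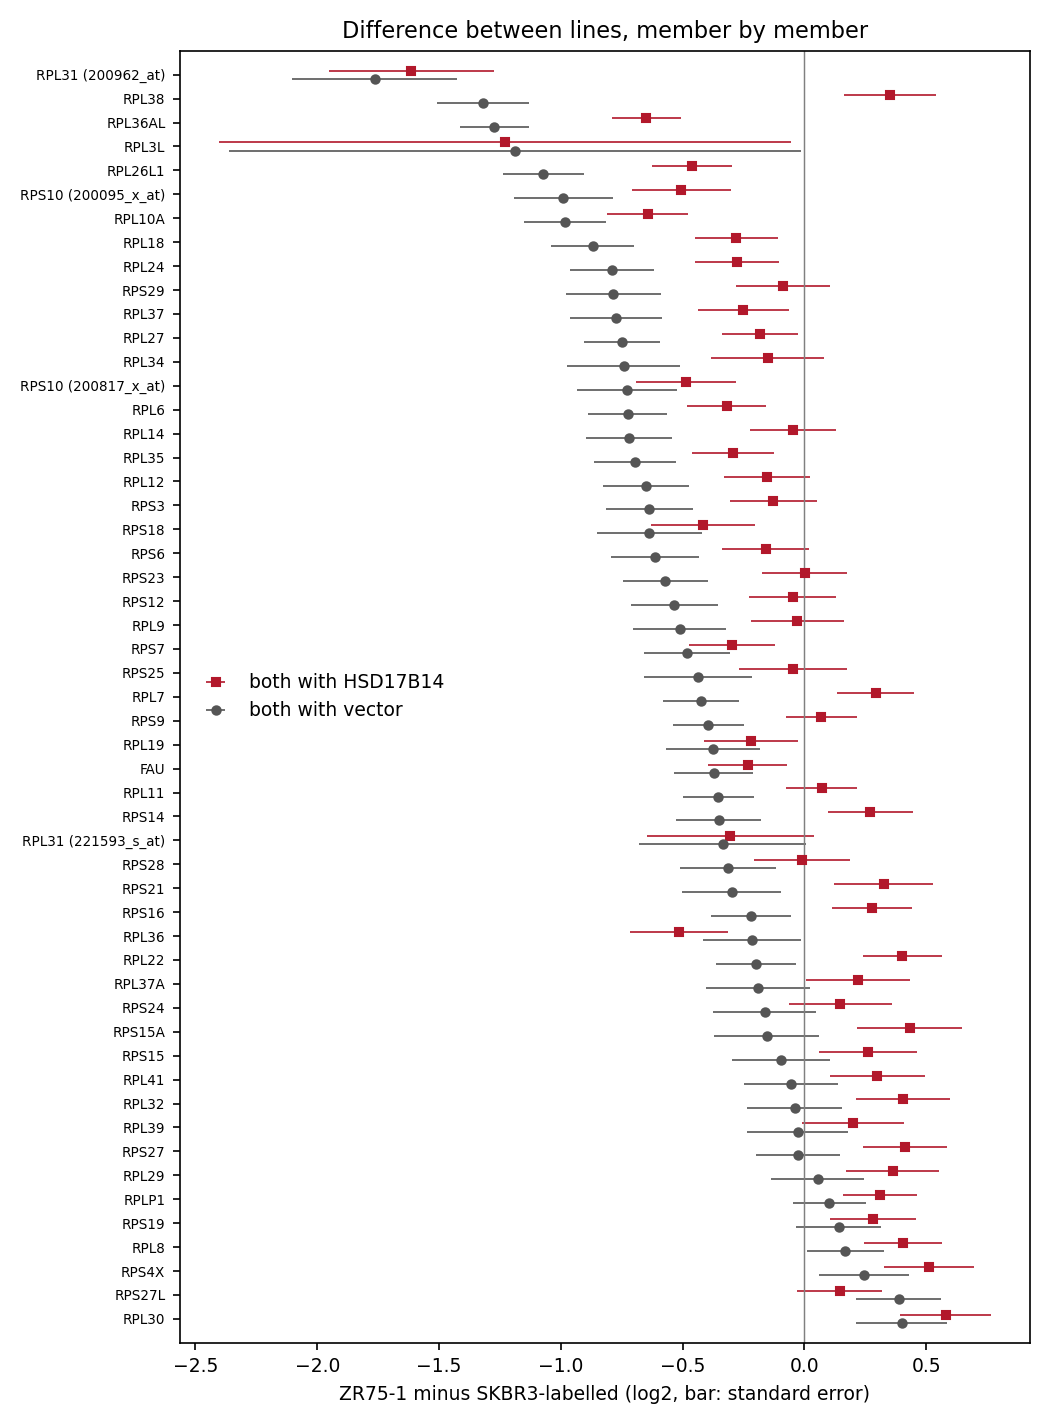
Difference between lines (ZR75-1 minus SKBR3-labelled, log2) for each ribosomal protein probe set, with HSD17B14 in both lines (red squares) and with vector in both (grey circles), without the Y-linked member. Bars are limma's standard errors. Most squares lie to the right of their circles, and RPL38 moves most, to 0.35 with HSD17B14 against -1.32 with vector.

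Other lists of the translation machinery were read beside the members. With the plasmid, 0.736% of all probe sets were called higher and 0.784% lower in ZR75-1, and 0.944% and 0.048% in SKBR3-labelled cells. Lists this short can thus hold 0 calls without differing from all probe sets. Of 16 mitochondrial ribosomal protein genes, which serve the separate ribosome of mitochondria, MRPL49 fell with HSD17B14 in ZR75-1 (-0.86 ± 0.15, limma adjusted p 0.0273). MRPL49 was also called for the difference of effects (-1.19, adjusted p 0.0373). In SKBR3-labelled cells 0 of the 16 genes were called, with a median of 0.08. Between the vector controls, where 19.6% of all probe sets were called higher and 20.7% lower, 6 of the 16 were called higher and 3 lower in ZR75-1 (median 0.47). Further TOP messages, 18 probe sets of 15 genes such as translation elongation factors, had 0 plasmid calls within a line and a median of -0.19 in SKBR3-labelled cells. There 10 of them (55.6%) had every HSD17B14 array under every vector array and 1 had them above, where 20.6% of all probe sets were under. At an unadjusted limma p under 0.05, 5 were lower and 1 higher there, against 3.82% and 4.96% of all probe sets. A lower signal in SKBR3-labelled cells was thus not particular to the members. For the difference of effects 1 EEF2 probe set was called (-1.65, limma adjusted p 0.0468), where 0.624% of all probe sets were called. It differed by -0.81 in ZR75-1 and 0.83 in SKBR3-labelled cells. The other EEF2 probe set read 435.4 and 411.7 with HSD17B14 and 499.5 and 451.7 with vector in SKBR3-labelled cells. Between the vector controls 4 of the 18 TOP probe sets were called higher and 7 called lower in ZR75-1. Of 16 ribosome assembly factors 0 were called with the plasmid in either line, and 2 were called higher and 6 called lower in ZR75-1 controls. EIF6 (-1.56), which keeps the subunits apart, and MYC (-1.27), a driver of ribosome production, were among the lower.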

How the data were processed

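The deposited values were signal intensities on a linear scale, 1 per probe set and array, produced by MAS5 according to the submitters' processing notes; its version is not given in the sources used here. Before log2 was taken, values below 1 (2.41% to 7.13% per array) were set to 1. Of 8746 non-control probe sets, 6251 lay above their array's 40th percentile on at least 2 arrays and were tested, all 54 members among them. limma 3.58.1 (R 4.3.3) fitted the 4 group means with a mean-dependent prior, and members were called at a Benjamini-Hochberg adjusted p under 0.05 over all 6251. Python 3.11.15 and matplotlib 3.10.9 drew the figures. With 2 arrays a group, the number of arrays sets the precision.

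The members and lists were chosen with earlier results of these data known. Genes were named if called in any contrast, if among the 4 smallest p-values in each direction of a contrast, if brightest or dimmest, or if paralogues or stalk proteins; RPL3L, RPL36AL, RPL26L1, RPS27, RPS27L, RPS4X, RPL10A, RPLP1 and FAU of that list were members. A few genes outside this rule were named after their values were seen. Same-numbered arrays of the HSD17B14 and vector groups did not deviate together (correlation -0.04 in each line), so the numbers were not taken to pair arrays. Alternatives were quantile normalization, median centring, other filters, log2 of the signal plus 32, a prior without trend, a replicate block, each line alone, the spike-in level as a block, the ratio of actin's 3' and 5' signals as a covariate, members without _s_at and _x_at probe sets, and leaving out each array. Simulated data with 200 of 6251 probe sets changed, drawn 20 times, served to test the fit. It recovered 7.41% of 1.5-fold and 32.4% of 2-fold changes in ZR75-1, and 6.88% and 31.2% in SKBR3-labelled cells. The changed probe sets were drawn from all those tested, and the noise held no shift shared by the probe sets of an array. These rates therefore do not describe the members, which were mostly bright and moved together. Protein sequences were not analysed here.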

Additional observations from a re-analysis of the deposited data

Results flagged for a closer look

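The plasmid's effect on RPL38 differed between the lines by the test of the difference itself. ZR75-1 minus SKBR3-labelled gave 1.67 ± 0.27 on the log2 scale (adjusted p 0.0204 by limma with Benjamini-Hochberg adjustment). It came from 0.96 in ZR75-1 and -0.71 in SKBR3-labelled cells, each with n = 2 arrays per group. The call was lost with the ratio of actin's 3' and 5' signals as a covariate, where 0 of all 6251 probe sets were called. In ZR75-1 that ratio and the plasmid go together and cannot be told apart. The difference kept its sign in all 17 alternative settings (1.41 to 2.22) and passed in 8 of them.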

How the results depend on the processing

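The medians of the members kept their sign in most settings. Leaving out each array in turn gave medians of -0.11 to 0.28 for the plasmid in ZR75-1, -0.39 to -0.26 in SKBR3-labelled cells, -0.21 to -0.02 averaged over both, 0.25 to 0.61 for the difference of effects, -0.59 to -0.24 between the vector controls and -0.09 to 0.02 between the HSD17B14 arrays. The counts of calls were then 0 to 1, 0 to 0, 0 to 0, 0 to 1, 15 to 30 and 2 to 11, and 46 to 47 members had every SKBR3-labelled HSD17B14 array under every vector array. That last range is for leaving out an SKBR3-labelled array, where 31.4% to 44.2% of all probe sets were apart in this direction. With all arrays it was 43 members and 20.6% of all probe sets. Groups with fewer arrays are apart more easily, so the higher member count is no added evidence. Median centring moved the ZR75-1 median of all probe sets to 0.16 and that of the members to 0.29. Quantile normalization gave a median of -0.0655 in SKBR3-labelled cells, 0.14 for the difference of effects, 17 calls between the HSD17B14 arrays and 15 members apart in SKBR3-labelled cells. The RPL38 calls with the plasmid in ZR75-1 and for the difference of effects were both lost (0 calls) with median centring, a prior without trend, the actin ratio and, by construction, without _s_at and _x_at probe sets, and in ZR75-1 also when the spike-in level was the block. With the actin ratio the difference of effects had a median of 0.19, and the vector controls had 3 calls and a median of -0.22. The vector controls had 10 calls with a prior without trend, where 33.3% of all probe sets were called. On the 15 _at probe sets alone they had 9, with a median of -0.70, where 40.2% of all were called. The HSD17B14 arrays had 7 calls with the 60th percentile filter, 8 with 32 added and 2 with a prior without trend. Over all probe sets 48.8%, 36.5% and 26.3% were called in these settings. On _at probe sets alone 1 member was called, where 33.2% of all probe sets were called. The replicate block left all medians as they were and called 1, 0, 0, 1, 25 and 5 members in the order above. Over all probe sets it called 2.99%, 1.2%, 2.38%, 0.736%, 40.6% and 33.1%. Few single values changed sign. With the plasmid in ZR75-1, RPS27L ran from -0.45 to 0.0692 over the left-out arrays and was 0.0157 with median centring, and RPL36 ran from -0.61 to 0.0644. In SKBR3-labelled cells RPS25 ran from -0.23 to 0.41 and was -0.0665 with the actin ratio, and RPL36 was -0.0073 with it. In the difference of effects RPL3L ran from -1.71 to 1.63 and was 0.0886 with median centring and 0.0896 with the actin ratio, RPS27L ran from -0.50 to 0.0156 and RPL36 from -0.64 to 0.0326. The values of RPS27L and RPL36 in ZR75-1 and in the difference of effects turned without ZR75-1 vector array 2, and that of RPS25 without SKBR3-labelled vector array 1. Where a setting changed a call, the cause was not tested. The array counts limit the precision, and no detection calls were used here.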
